A study of Mus musculus with 8 samples.

Results

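P spermatocytes of MFN2 cKO mice were compared with P spermatocytes of MFN2 WT mice at postnatal day (PD) 24, in 2 of the 8 RNA libraries of the study, 1 library of each genotype. P is the pachytene stage of meiosis and L/Z the leptotene and zygotene stages before it. The WT mice were Mfn2 loxp/loxp and the cKO mice Mfn2 loxp/loxp; Stra8-Cre, all on the C57BL/6J strain, so both genotypes carried the floxed alleles and Cre was present in the cKO alone. By the study's methods, some control animals could also carry a single floxed allele, the loxP sites flank a single exon of Mfn2, and the Stra8 promoter drives Cre in germ cells from early spermatogonia on. The other 6 libraries are P spermatocytes at PD 52 and L/Z spermatocytes at PD 24 and PD 52 of the same genotypes. Cells of digested testes were separated by size as they settled through a gradient of albumin, and their stage was judged by diameter and appearance. The study states that other testis cells could remain, and calls the cKO cells pachytene or pachytene-like. How many animals went into a library is not given in the sources used here.

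MFN2 is a GTPase of the outer mitochondrial membrane that fuses mitochondria and tethers them to the endoplasmic reticulum. In pachytene spermatocytes the homologous chromosomes are fully synapsed, the X and Y chromosomes are silenced in the sex body, and many genes that sperm will need are already transcribed. After the meiotic divisions, round spermatids switch on a second set of genes for the acrosome, the tail and the packing of DNA. In elongating spermatids histones are replaced by transition proteins and then by protamines. At PD 24 the first wave of spermatogenesis has reached the round spermatids, and protamine mRNA is made before it is translated.

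Expression was measured as FPKM (fragments per kilobase of transcript, scaled to the size of the library). The WT library held 20379950 reads on genes and the cKO library 16639013. A difference is log2(FPKM + 1) in cKO minus WT, over the 16749 of 54532 listed genes with FPKM above 1 in either library. With 1 library of each genotype no difference could be tested against the spread between replicates, and the 95% intervals given are exact binomial (Clopper-Pearson) intervals that cover the counting error of the reads only. Mfn2 itself stood at 77.1 FPKM in WT and 39.6 FPKM in cKO (8076 and 3822 reads), a difference of -0.94. Mfn2 was thus lower in the cKO library, as its label says, at 51.3% of the WT level. The value is summed over the whole gene, so that it does not isolate the floxed exon. Mfn1, the partner of MFN2 in fusion, stood at 15.2 FPKM in WT and 13.1 FPKM in cKO.

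The differences were asymmetric. At least 2-fold lower in cKO were 1054 genes, 6.29% of those that pass the filter, and at least 2-fold higher were 300 genes, 1.79%. Lower genes thus made up 77.8% of the 1354 genes (8.08%) that differed at least 2-fold either way, and the median difference over all genes was -0.10. Of these 1354 genes, 384 had fewer than 20 reads in both libraries together, and 1082 had a counting interval that leaves out 0. The interval lay wholly beyond 2-fold for 505 lower and 81 higher genes. A difference of 8-fold or more was seen in 30 lower and 7 higher genes. The log2(FPKM + 1) scale understates the differences of genes of low level. In the plot of all genes, the labelled genes farthest below the line of equal levels are spermatid genes, and those more than 2-fold above it have low WT levels.

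**Figure D1:**
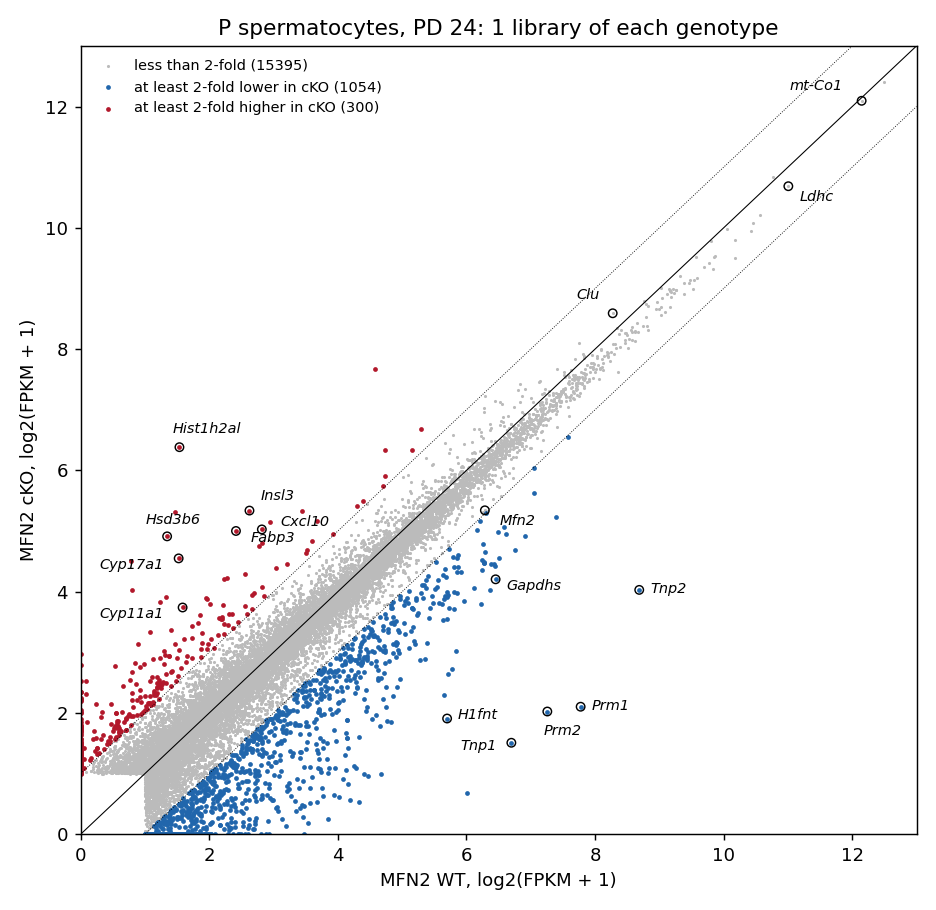
Level of each of the 16749 genes in MFN2 WT (x axis) and MFN2 cKO (y axis) P spermatocytes at PD 24, as log2(FPKM + 1), 1 library of each genotype; the solid line marks equal levels, dotted lines a 2-fold difference, and circles the named genes. Prm1, Prm2, Tnp1 and Tnp2 lie far below the line, and Hsd3b6 and Cyp17a1 lie above it at low WT levels.

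The label of the cells was set against defining markers. All 7 pachytene markers were present in both libraries, with a summed level of 3400 FPKM in WT and 2699 FPKM in cKO, and Ldhc, the lactate dehydrogenase of germ cells, alone gave 2057 and 1647 FPKM. Piwil1, a piRNA-binding protein that appears at pachytene, stood at 278 FPKM in WT and 218 FPKM in cKO, against 22.2 FPKM in the L/Z WT library of the same age. Other members of the list did not separate the stages in this way, with Ldhc at 1494 FPKM in that L/Z library, Ccna1 at 88.4 FPKM against 83.2 FPKM in P WT, Pgk2 at 252.9 FPKM against 167.8 FPKM, and the whole list at 2352 FPKM against 3400 FPKM. The mid-pachytene linker histone gene Hist1h1t had few reads in either library (41 and 27), at 2.23 and 1.59 FPKM. Sycp3, Sycp1 and Ddx4, listed as markers of meiotic cells, summed to 313 FPKM in WT and 303 FPKM in cKO. Ddx4 alone gave 190 and 189 FPKM of this, with Sycp3 at 69.3 and 69.5 FPKM and Sycp1 at 53.5 and 45.1 FPKM. Both libraries thus carried the pachytene and meiotic markers, with a lower pachytene sum in cKO.

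Markers of other cells were present as well, and none of the 47 defining markers was at 0 reads in either library. The 6 spermatid markers summed to 914 FPKM in WT and 30.4 FPKM in cKO. The 6 Leydig cell markers ran the other way, with 18.2 FPKM in WT and 110 FPKM in cKO. Sertoli cell markers summed to 344 and 429 FPKM, with Clu at 309 and 385 FPKM, and macrophage markers to 8.52 and 16.2 FPKM. Markers of spermatogonia (49.2 and 55.1 FPKM), of leptotene and zygotene cells (36.6 and 29.6 FPKM), of myoid cells (27.3 and 30.9 FPKM), of endothelial cells (1.31 and 2.04 FPKM) and of red blood cells (0.867 and 2.86 FPKM) were closer together or low. In such bulk samples, fewer cells of a type and less RNA per cell cannot be told apart, and the part of cells other than spermatocytes in the differences below was not tested.

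**Figure D2:**
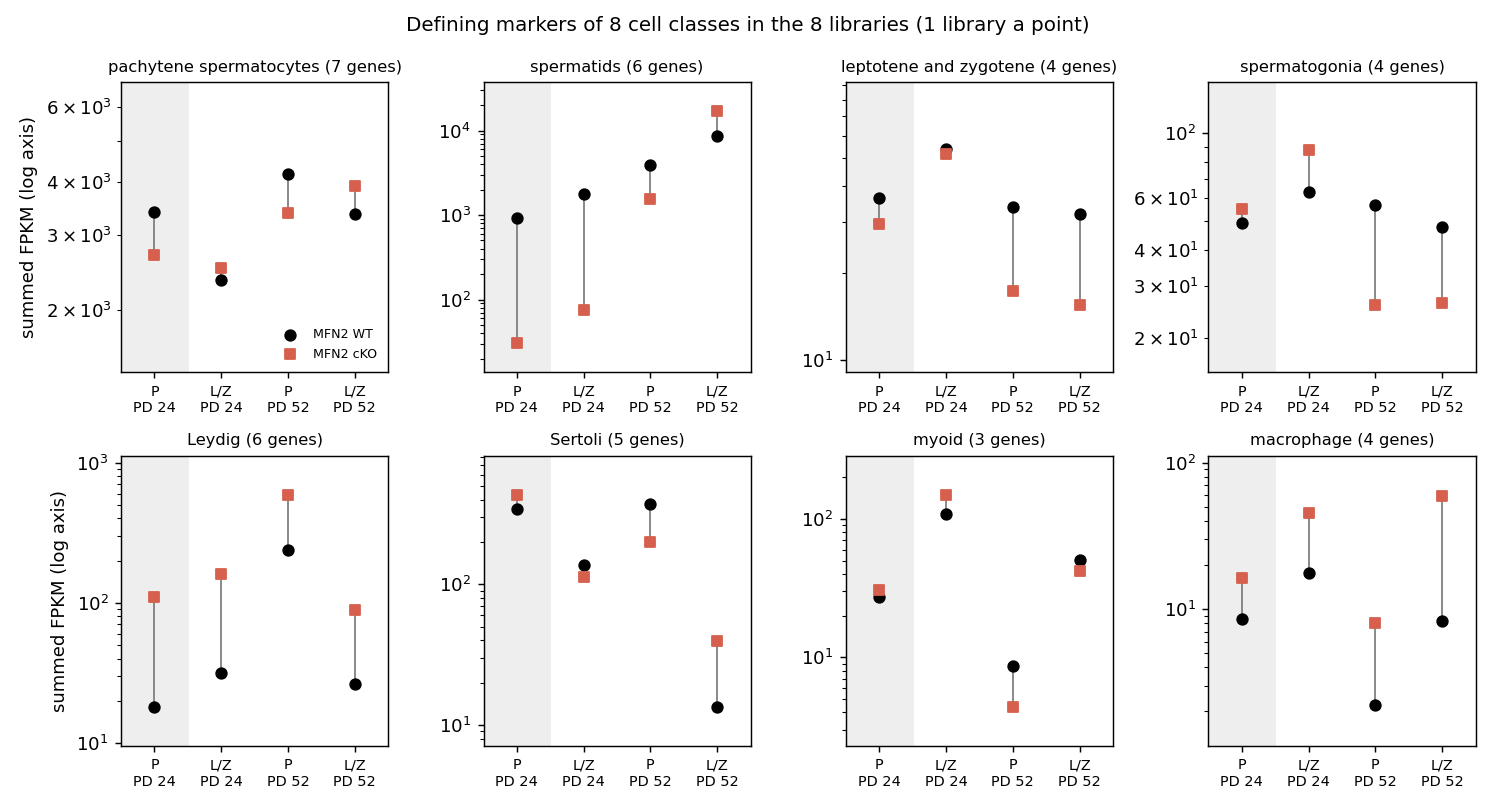
Summed FPKM (log axis) of the defining markers of 8 cell classes in MFN2 WT (black circles) and MFN2 cKO (red squares), each point 1 library; the shaded column is P spermatocytes at PD 24. There the spermatid sum is 914 FPKM in WT and 30.4 FPKM in cKO, and the Leydig sum is 18.2 and 110 FPKM.

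Genes that pack the spermatid nucleus were lower than any other list examined. All 14 members of the list of spermatid chromatin condensation passed the filter, 10 were at least 2-fold lower and none higher, with a median of -2.25. Prm1, the protamine 1 gene, stood at 218 FPKM in WT and 3.30 FPKM in cKO (2514 and 35 reads), a 66.2-fold lower level. Prm2, which encodes protamine 2, stood at 152 and 3.07 FPKM, and its difference was -5.23 with an interval of -5.55 to -4.92. The transition protein genes Tnp1 (103 FPKM in WT, 1.85 FPKM in cKO) and Tnp2 (411 and 15.3 FPKM) differed by -5.19 and -4.66. All of these late genes kept under 4% of their WT level in cKO. H1fnt, a linker histone of elongating spermatids, had 1345 reads in WT and 67 in cKO, and Hils1, another spermatid linker histone, had 1876 and 399 reads. Chd5, a remodeler needed for the exchange of histones, was 2-fold or more lower at -1.56. Other members that spermatocytes already use were close to the median of all genes, such as Brdt, which reads acetylated histones (7035 and 5775 reads, -0.17), and H3f3b, a replacement histone gene (16281 and 14024 reads, -0.10). The list thus ran from -5.67 to -0.10.

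Prm1, Prm2, Prm3 and Tnp2 lie beside each other on chromosome 16, between bases 10787936 and 10805839 of GRCm38, and all 4 were lower. Prm3 had 206 reads in WT and 28 in cKO, a difference of -2.47. The promoters of the 2 protamine and 2 transition protein genes are shown because these genes were the lowest of all list members relative to WT. Each is the 300-base RefSeq window on GRCm38.p6, from 250 bases before to 50 after the start of transcription, read in the direction of the gene, which for all 4 is the minus strand. The windows are chr16:10796774-10797073 for Prm1, chr16:10792056-10792355 for Prm2, chr16:10788606-10788905 for Tnp2 and chr1:73015850-73016149 for Tnp1. Capitals mark AAGGTCA or TATAAA on either strand.
Prm1: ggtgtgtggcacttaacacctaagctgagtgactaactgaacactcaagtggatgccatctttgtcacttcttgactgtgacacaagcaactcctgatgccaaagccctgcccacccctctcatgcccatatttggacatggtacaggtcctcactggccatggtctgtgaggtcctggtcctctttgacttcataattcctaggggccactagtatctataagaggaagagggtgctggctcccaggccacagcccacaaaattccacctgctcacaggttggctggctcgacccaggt
Prm2: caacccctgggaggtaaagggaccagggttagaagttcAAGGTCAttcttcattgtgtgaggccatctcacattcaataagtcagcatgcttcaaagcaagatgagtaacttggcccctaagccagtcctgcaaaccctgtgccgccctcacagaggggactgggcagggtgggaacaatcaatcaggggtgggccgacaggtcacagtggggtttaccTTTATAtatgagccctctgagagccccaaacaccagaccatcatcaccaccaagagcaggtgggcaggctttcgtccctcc
Tnp2: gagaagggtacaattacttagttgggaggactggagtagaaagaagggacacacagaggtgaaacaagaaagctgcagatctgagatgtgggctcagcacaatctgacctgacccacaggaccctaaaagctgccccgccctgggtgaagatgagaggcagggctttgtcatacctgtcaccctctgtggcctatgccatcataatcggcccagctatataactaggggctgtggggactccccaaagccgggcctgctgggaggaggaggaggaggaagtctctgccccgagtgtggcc
Tnp1: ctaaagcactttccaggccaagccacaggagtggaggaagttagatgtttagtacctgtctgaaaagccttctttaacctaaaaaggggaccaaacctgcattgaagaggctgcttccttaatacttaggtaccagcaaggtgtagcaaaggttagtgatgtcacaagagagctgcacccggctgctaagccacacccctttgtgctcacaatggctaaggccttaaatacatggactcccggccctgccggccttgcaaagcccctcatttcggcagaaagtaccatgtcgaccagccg
Prm2 alone among them held AAGGTCA, 212 bases before its start, and TATAAA read on the other strand, 31 bases before it. None of the 4 windows held TGACGTCA.

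Motifs were then counted on both strands over all promoters of the table, as a description that locates no binding. A RefSeq window was found for 10980 of the genes that pass the filter, 551 of them 2-fold lower and 88 of them 2-fold higher in cKO. TGACGTCA, the full cAMP response element bound by CREM and CREB, was in 17 of the lower genes (3.09%), in 0 of the 88 higher genes and in 387 of all genes (3.52%). The share in the lower genes was close to that of all genes. The genes with TGACGTCA had a median difference of -0.09, and so did those without. Of the 17 lower genes, the 4 with the most reads in WT are shown, with the motif in capitals, each within 60 bases of GRCm38.p6 read in the direction of the gene.
Kif17, chr4:138262139-138262198, plus strand: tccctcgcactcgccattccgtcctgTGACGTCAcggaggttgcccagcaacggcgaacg
Znrf4, chr17:56512519-56512578, minus strand: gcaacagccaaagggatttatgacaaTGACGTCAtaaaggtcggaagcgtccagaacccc
Spag4, chr2:156065150-156065209, plus strand: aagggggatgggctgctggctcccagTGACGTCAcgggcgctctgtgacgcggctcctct
Spata7, chr12:98628109-98628168, plus strand: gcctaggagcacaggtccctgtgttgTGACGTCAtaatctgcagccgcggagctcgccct
Kif17, a kinesin that carries the CREM coactivator ACT, had 2403 reads in WT and 920 in cKO (-1.19). Znrf4, an E3 ubiquitin ligase gene, had 2051 and 449 reads (-2.02), and Spag4, a tail and nuclear envelope protein of spermatids, 1652 and 459 reads (-1.56). Spata7 had 1384 and 509 reads (-1.07). All 4 sites lay within 86 bases before the start of the gene.

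AAGGTCA, bound by NR5A1 and related nuclear receptors, was in 48 of the 551 lower genes (8.71%), against 487 of all 10980 genes (4.44%) and 2 of the 88 higher genes (2.27%). The share in the lower genes was above that of all genes, without a test. The genes with AAGGTCA had a median difference of -0.15, against -0.08 for those without. The 4 lower genes with the most reads in WT that hold it are shown, where TGACCTT in capitals is the same motif on the other strand.
Prm2, chr16:10792285-10792343, minus strand: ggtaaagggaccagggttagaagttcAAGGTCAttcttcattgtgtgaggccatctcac
Rab3il1, chr19:10001653-10001711, plus strand: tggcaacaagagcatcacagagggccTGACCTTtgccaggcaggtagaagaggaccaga
Tex33, chr15:78396067-78396125, minus strand: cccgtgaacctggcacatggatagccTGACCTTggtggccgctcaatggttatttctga
Best1, chr19:10001653-10001711, minus strand: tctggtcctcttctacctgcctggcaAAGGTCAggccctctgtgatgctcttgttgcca
Best1, a chloride channel, and Rab3il1, an exchange factor for Rab GTPases, are read away from each other from a shared promoter on chromosome 19, so that their 2 lines are the same 59 bases on opposite strands. Both were lower in cKO, Best1 from 1493 to 368 reads (-1.80) and Rab3il1 from 1919 to 566 reads (-1.51). Tex33, a spermatid gene, had 1904 and 487 reads (-1.80). The direct repeat of AGGTCA with 1 base between its copies, bound by PPAR with RXR, was rare, in 9 of all genes (0.0820%), 1 of the lower and 0 of the higher genes.

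TATAAA, chosen after the values were seen, was in 18 of the 88 higher genes (20.5%), in 66 of the 551 lower genes (11.98%) and in 1000 of all genes (9.11%). The genes with TATAAA had a median difference of -0.10, against -0.09 for those without. The 4 higher genes with the most reads in cKO that hold it are shown, where TTTATA in capitals is the same motif on the other strand.
Apoe, chr7:19698690-19698747, minus strand: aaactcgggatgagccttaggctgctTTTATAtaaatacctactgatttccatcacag
Col3a1, chr1:45311395-45311452, plus strand: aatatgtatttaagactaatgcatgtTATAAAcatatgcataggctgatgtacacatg
Adamts1, chr16:85803114-85803171, minus strand: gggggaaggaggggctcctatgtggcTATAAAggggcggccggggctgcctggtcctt
Selenop, chr15:3270941-3270998, plus strand: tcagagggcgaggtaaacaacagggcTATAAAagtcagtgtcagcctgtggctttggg
Apoe, a lipid carrier of macrophages and other cells, had 511 reads in WT and 1389 in cKO (1.48). Col3a1, a fibrillar collagen (526 and 1210 reads), Adamts1, a secreted protease (218 and 815 reads), and Selenop, a selenium carrier (198 and 575 reads), were higher too. In Adamts1 the motif lay 32 bases before the start, and in Col3a1 117 bases before it. In Apoe the motif on the other strand overlaps a copy on the gene's own strand, which is not in capitals.

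Genes of the tail were lower as well. In the list of the fibres and sheaths of the sperm tail all 22 members were below 0, 11 at least 2-fold, with a median of -1.13. Gapdhs, the glycolytic enzyme bound to the fibrous sheath, stood at 86.7 FPKM in WT and 17.4 FPKM in cKO, and Akap4, the main sheath protein, encoded on the X chromosome, at 61.5 and 13.5 FPKM. Smcp, a protein of the mitochondrial sheath, stood at 168 and 36.6 FPKM, and Odf1, of the outer dense fibres, at 120 and 29.3 FPKM. These 4 genes kept between 20% and 25% of their WT level. Other tail genes were below WT by less than 2-fold, such as Odf2 (40197 and 26969 reads, -0.46) and Ldhc (65548 and 48414 reads, -0.32), which spermatocytes express as well.

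In the list of testis-specific serine kinases, which act in spermatids, 8 of 8 genes were at least 2-fold lower, with a median of -1.77. The list also holds Spata3 and Tsks, and the 6 Tssk genes alone had a median of -1.41. Spata3 had 673 reads in WT and 35 in cKO (-2.99), Tssk6 360 and 25 reads (-2.84), Tssk2 1534 and 313 reads (-2.09) and the kinase substrate Tsks 2023 and 443 reads (-1.99). The smallest difference in the list was that of Tssk5, at -1.08. Tssk6 shares 25.3% of its 50-base transcript windows with Ndufa13, the gene next to it, which differed by -0.65. Among acrosome and sperm-egg binding genes 9 of 26 were at least 2-fold lower (34.6%, beside 6.29% of all genes), with a median of -0.55. Spaca4, a sperm surface protein, stood at 43.5 and 13.1 FPKM, Izumo2 at 24.3 and 7.35 FPKM, and Spaca1, needed for the acrosome, at 38.3 and 14.7 FPKM. Acrv1, an acrosomal antigen, had 1164 and 400 reads (-1.29). Dkkl1, which spermatocytes transcribe strongly, stood at 522 and 411 FPKM (-0.35).

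In the remaining spermatid lists fewer members passed 2-fold. Of the CatSper channel and sperm ion transport genes 5 of 20 were at least 2-fold lower and the median was -0.32. Atp1a4, the sodium pump of sperm, had 2228 and 336 reads (-2.39), Lrrc52 201 and 31 reads (-1.98), Catsper3 402 and 136 reads (-1.30) and Catsper4 959 and 339 reads (-1.29), while Catsperz, at 331 and 305 FPKM, differed by -0.12. No member of the axoneme list was 2-fold changed (0 of 26, median -0.27), and Rsph9 had the largest difference in it at -0.54. With FPKM as deposited all 26 were below 0, among them Dnah1, a dynein of the moving axoneme (42.1 and 31.6 FPKM), and Rsph1, of the radial spokes (1151 and 893 FPKM). The median of the axoneme list is -0.09 when the libraries are scaled by their read totals. Of 18 spermiogenic transcription regulators 2 were at least 2-fold lower (11.1%, not far from the 6.29% of all genes), with a median of -0.29: Fhl5, the CREM coactivator ACT (609 and 71 reads, -2.65), and Cdyl, a chromodomain protein (1297 and 389 reads, -1.44). Sox5 (-0.96), Rfx1 (-0.77) and Tcfl5 (-0.28) were members below that size. In the list of germ-cell mRNA storage none of 18 reached 2-fold, with a median of -0.22, and Ybx2, an mRNA-binding protein that holds back translation, stood at 1380 and 984 FPKM (-0.49), with Ybx3 at -0.35, Cpeb2 at -0.60 and Nanos1 at 0.48.

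**Figure D3:**
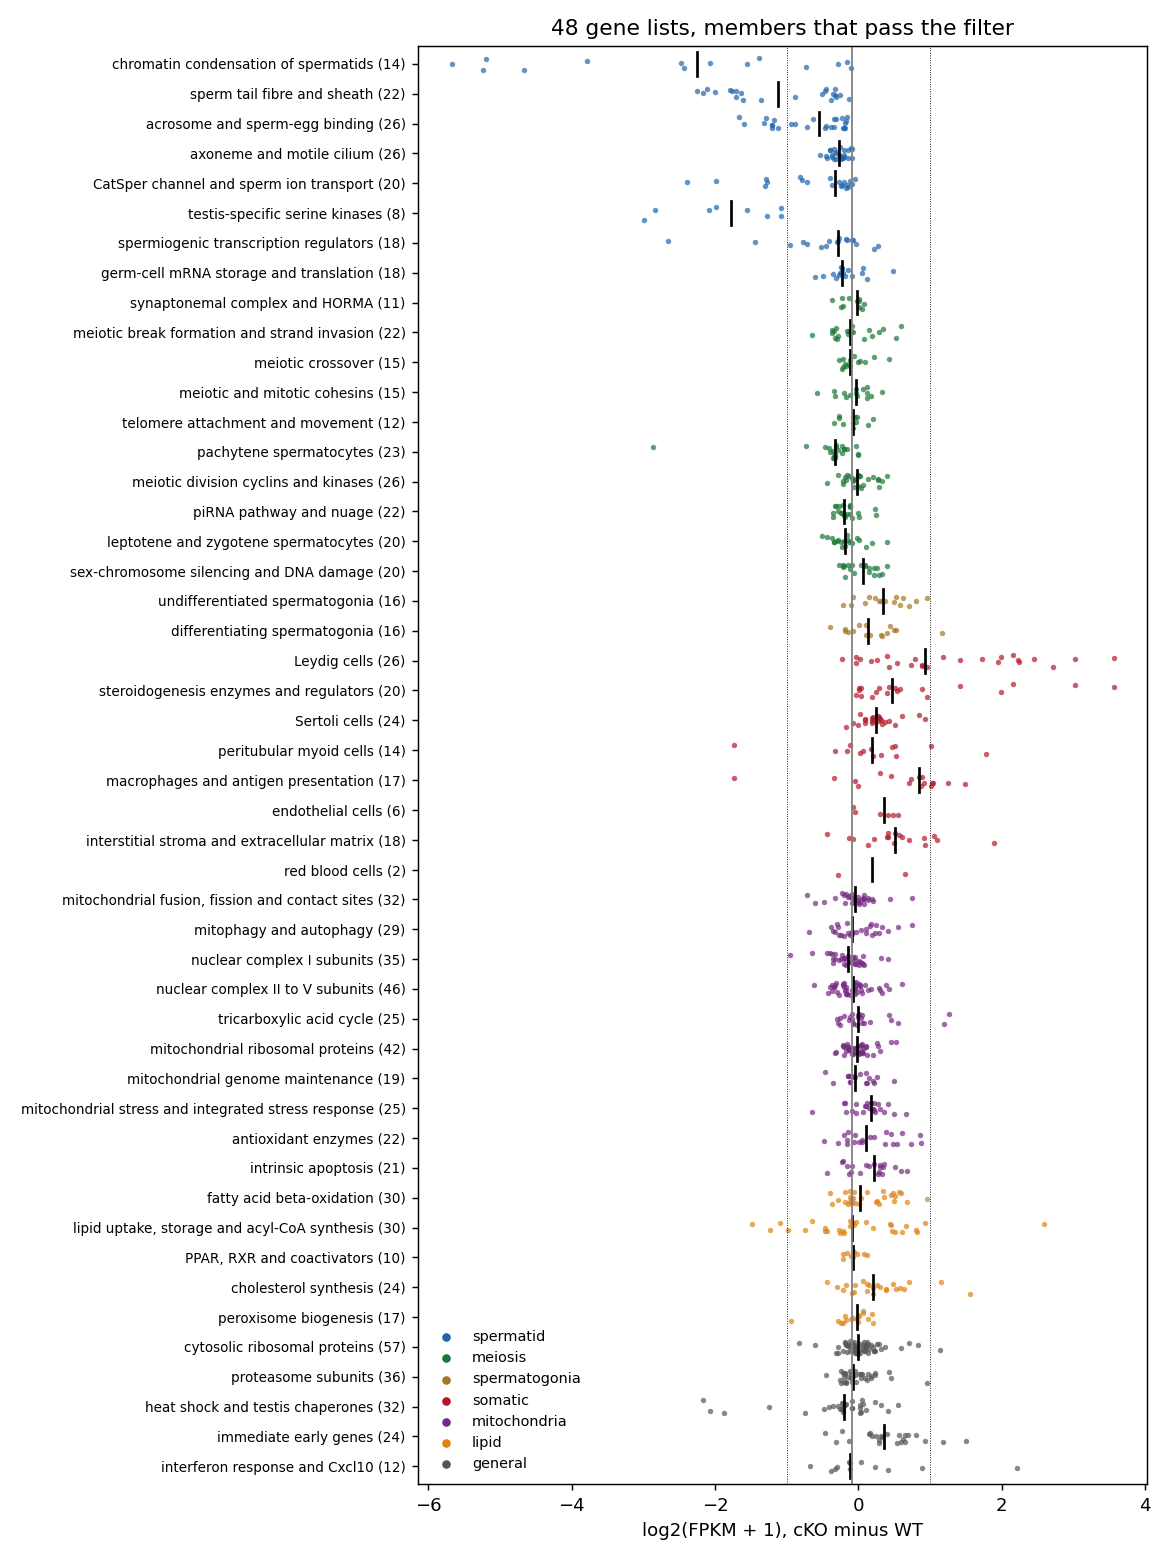
Difference of each member (points, 1 gene each) in 48 gene lists, as log2(FPKM + 1) in cKO minus WT, P spermatocytes at PD 24; black bars are list medians, the grey line the median of all genes, dotted lines 2-fold, and the number of members is in brackets. The lists of spermatid chromatin (-2.25), serine kinases (-1.77) and the tail sheath (-1.13) lie lowest, and those of Leydig cells (0.92) and macrophages (0.85) highest.

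The same late genes stood out when the table was read by gene name. Of 30 Spata genes 15 were at least 2-fold lower (median -1.03), of 36 Tex genes 12 and of 25 Adam genes 6, beside 4.39% of all protein-coding genes, and none of these 3 families had a member 2-fold higher. All 5 Iqcf genes, whose products hold calmodulin-binding motifs, were lower and lie in a row on chromosome 9 (bases 106499967 to 106627675). Iqcf1 had 246 and 15 reads (-3.07), Iqcf3 1194 and 136 reads (-2.63), and the smallest difference was that of Iqcf5 (264 and 51 reads, -2.05). The Cypt genes, which encode cysteine-rich proteins of the spermatid nucleus, were at least 2-fold lower in 6 of 6, led by Cypt12 (626 and 73 reads, -2.82). Of the H2al histone variant genes, 5 of 6 were lower, and H2al2a, which opens nucleosomes to transition proteins, had 267 and 10 reads (-3.67). H2al1m had 55 reads in WT and 0 in cKO, at least 16.9-fold lower against a floor of 3 reads, but shares 83.7% of its windows with other H2al genes. The clustered histone genes as a whole had 1 of 20 lower and 1 higher (5% each, beside 6.29% and 1.79% of all genes), and a median of -0.33.

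Other genes far below WT were Ccdc185, a coiled-coil gene (795 reads in WT and 17 in cKO, -3.80), and Gm21953 (338 and 3 reads), all of whose sequence windows also lie in 4 other genes, so that its value is uncertain. Among genes that pass the filter 213 had 0 reads in cKO, of which 43 had 20 or more reads in WT. The highest was Fbxo39, an F-box gene, with 228 reads in WT, at least 70.1-fold lower. In the other direction 100 genes had 0 reads in WT, only 2 of them with 20 or more in cKO.

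Neighbouring genes were lower together at several places. Ordered along the chromosomes, the genes that pass the filter held 19 runs of 3 or more neighbours that were all at least 2-fold lower, 64 genes in all, and 4 runs that were all higher, 12 genes in all. Spem1 (424 and 19 reads, -3.42), which acts in the shedding of cytoplasm, lies beside Spem2 (594 and 36 reads, -3.12) and the noncoding Gm39566 (1316 and 197 reads) on chromosome 11. Adam24, Adam25 and Adam20, sperm surface proteases, form a run on chromosome 8 with a median of -1.25, though Adam25 and Adam20 share about 34% of their windows with other genes. The runs of higher genes hold Hsd3b6, Hsd3b1 and Hao2 on chromosome 3, and the tissue kallikreins Klk1b27, Klk1b21 and Klk1b24 on chromosome 7.

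Genes of meiosis differed little. Of the synaptonemal complex and HORMA genes none of 11 was 2-fold changed, with a median of -0.02. Syce3 (56.5 and 43.4 FPKM), Sycp1 (53.5 and 45.1 FPKM), Syce2 (16.1 and 13.6 FPKM) and Syce1 (243 and 208 FPKM) had the largest differences in that list, from -0.37 to -0.22. These are proteins of the zipper between homologous chromosomes. The lists of break formation and strand invasion (22 genes, median -0.12), crossover (15 genes, -0.11), cohesins (15 genes, -0.03), telomere attachment (12 genes, -0.07), division cyclins (26 genes, -0.02), piRNA and nuage (22 genes, -0.19), leptotene and zygotene genes (20 genes, -0.19) and sex-chromosome silencing (20 genes, 0.06) also had no 2-fold member.

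Single meiotic genes differed both ways within these lists. Top6bl, listed as 4930432K21Rik and needed for meiotic breaks, had 1513 and 873 reads (-0.65), while Rec114 (47 and 78 reads, 0.60) and Spata22 (77 and 112 reads, 0.52) were higher. Msh5 (680 and 501 reads, -0.27), Prr19 (1696 and 1329 reads, -0.23), Rnf212 (-0.22, interval -0.51 to 0.08) and Tex11, on the X chromosome (325 and 427 reads, 0.43), were the crossover genes with the largest differences. Rec8, the meiotic cohesin, differed by -0.57 and Rad21, the mitotic one, by 0.33, with Smc1b at -0.34 and Stag3 at -0.20. Ccdc155, which links telomeres to dynein, differed by -0.34, Dynll1 and Sun1 by -0.27 and Lmnb1 by 0.21. Cdc25b (0.40), Ccnb1 (0.33) and Aurkb (0.29), regulators of division, were above 0 and Fzr1 (-0.43) and Cdc20 (-0.21) below it. Among piRNA genes Tdrd6 (-0.36), Piwil1 (-0.35), Pld6 (-0.33) and Mael (-0.29) were below the median of all genes. Dmc1 (366 and 252 reads, -0.36), Prss50 (-0.50), Gm4969 (-0.43) and Tex101 (-0.16), active early in prophase, were below 0 and Scml2 (694 and 878 reads, 0.40), a regulator of the sex body, was above it. Atr (-0.26), the kinase that starts sex-chromosome silencing, and Mdc1 (-0.21), which spreads it, differed less than Chek1 (0.32) and Bbc3 (0.29) in size. The medians of 6 of these lists, from -0.12 to -0.02, are above 0 when the libraries are scaled by their read totals, and that of the synaptonemal complex list is then 0.15.

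The list of pachytene genes had a median of -0.32, or -0.15 when the libraries are scaled by their read totals. Of its 23 members 1 was 2-fold lower (4.35%, beside 6.29% of all genes). That member was Cst8, a cystatin of the germ line (418 and 39 reads, -2.87). Hspa2, the chaperone of the synaptonemal complex, stood at 770 and 578 FPKM (-0.41), Acr, the acrosin gene, at 116 and 83.8 FPKM (-0.46), and Hist1h2ba, a testis histone, had 72 and 37 reads (-0.74). Genes with high levels were lower on the whole: of the 394 protein-coding genes with a mean FPKM above 100, 357 were below 0, with a median of -0.26, against 0.00 for the 7041 genes between 1 and 10.

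Genes of the X chromosome stood apart from autosomal genes in both directions, which is described here without a test. Of 482 X-linked protein-coding genes 318 were above 0 (66.0%) and the median was 0.18, whereas of 11987 autosomal genes 4634 were above 0 (38.7%) and the median was -0.08. Another scaling of the libraries moves both medians alike. The X-linked and autosomal genes were not matched by level, and the 422 protein-coding genes with a mean FPKM up to 1 had a median of 0.18. Yet 46 X-linked genes (9.54%) were at least 2-fold lower, against 500 autosomal genes (4.17%). Reads on X-linked genes made up 0.883% of all reads in WT and 1.12% in cKO. Without the genes that were 2-fold lower, a step that can only raise a median, the medians were 0.23 for the X chromosome and -0.06 for the autosomes. In the L/Z pair of this age the medians of the X chromosome and the autosomes were 0.16 and 0.11, and in the P pair of PD 52 they were -0.27 and -0.08, and in the L/Z pair of PD 52 0.24 and 0.00, each pair with its own WT library.

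Among the lower X-linked genes were spermatid genes, such as Akap4 (3755 and 758 reads), Cypt3 (321 and 61 reads), Cypt1 (408 and 87 reads), H2al3 (94 and 7 reads) and Hypm (148 and 6 reads). Among the higher X-linked genes were Rps4x, a ribosomal protein gene (339 and 721 reads, 1.13), Nsdhl, an enzyme of cholesterol synthesis (73 and 215 reads, 1.16), Timp1, a protease inhibitor (24 and 73 reads, 1.21), and the homeobox gene Rhox10 (3 and 24 reads, 1.17). Rps4x shares 41.2% of its windows with other genes. On the Y chromosome only 15 genes passed the filter and the median was -0.01. The 13 mitochondrially encoded mRNAs had a median of -0.02, with mt-Co1, a subunit of cytochrome oxidase, differing by -0.05, though 51.1% of its windows have nuclear copies. They ranged from -0.94 for mt-Co2 (708 and 334 reads) to 0.72 for mt-Atp8 (1 and 4 reads), with mt-Co3 at 0.53 and mt-Atp6 at 0.39. Nearly all windows of mt-Co2, mt-Co3 and mt-Atp6 have nuclear copies, so these values are uncertain.

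**Figure D4:**
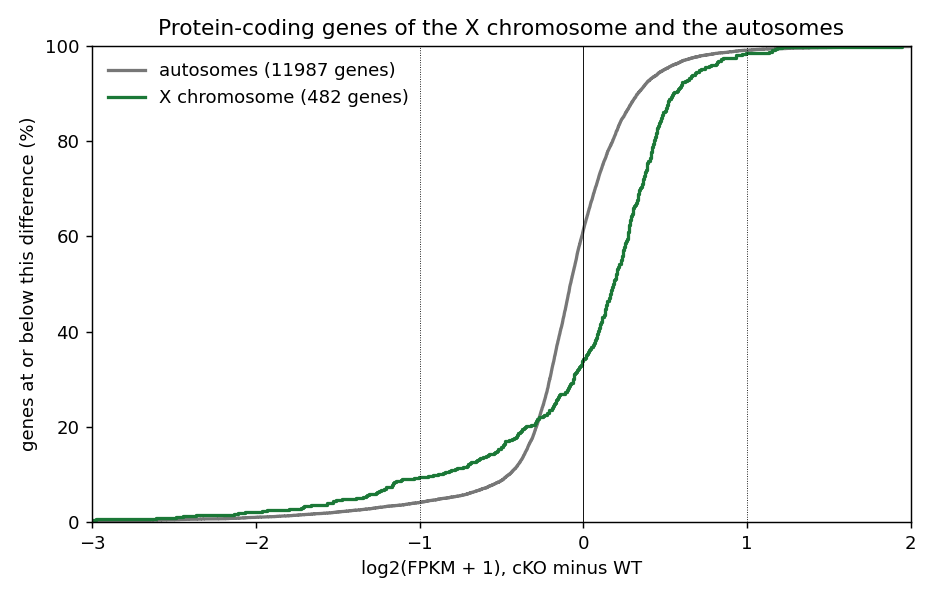
Cumulative share of protein-coding genes (y axis, percent) at or below each difference of log2(FPKM + 1), cKO minus WT (x axis), for 482 X-linked and 11987 autosomal genes, P spermatocytes at PD 24. The X-linked curve starts higher on the left, where 9.54% are at least 2-fold lower, and lies to the right of the autosomal curve around 0, with a median of 0.18 against -0.08.

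Genes of somatic cells made up much of the few higher genes that the lists hold. The lists hold 32 of the 300 genes at least 2-fold higher, and 22 of these are in a list of somatic cells. Of the 1054 lower genes the lists hold 55, and 45 of these are in a spermatid list. Such counts depend on how many genes of each kind were listed. In the Leydig cell list 12 of 26 genes (46.2%, beside 1.79% of all genes) were at least 2-fold higher and none lower. The median was 0.92, which is 0.84 without the filter. The lists were chosen with earlier results of these data known, so that these shares are a description and no test. Hsd3b6, the steroid dehydrogenase of adult Leydig cells, had 56 reads in WT and 976 in cKO, an 18.9-fold higher level, although 15.7% of its windows are shared with related genes. Cyp17a1, the enzyme that makes androgen precursors, stood at 1.88 and 22.4 FPKM (3.02), Cyp11a1, which cleaves the side chain of cholesterol, with 194 and 1104 reads (2.15), and Insl3, a Leydig cell hormone, at 5.17 and 39.4 FPKM (2.71). Insl3 lies within Jak3, with which it shares 61.8% of its windows. Klk1b24, a kallikrein, had 1 and 78 reads (2.45), with 33.9% of its windows shared, and Klk1b27 had 0 and 38 reads, at least 13.7-fold higher. Vcam1, an adhesion molecule, had 154 and 1283 reads (2.24), and Akr1cl, an aldo-keto reductase, 328 and 1384 reads (1.94). Not all genes of the list followed: Gramd1b was at -0.23, Fdx1, which passes electrons to the steroid enzymes, at -0.04, and Scarb1, a receptor for cholesterol uptake, at -0.03, the only 3 of the 26 below 0. Gstm2, the member of highest level in WT, was at 0.79. Star, which brings cholesterol into mitochondria, had 193 and 393 reads (0.88), and Nr5a1, its regulator, 703 and 899 reads (0.43).

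In the list of steroidogenesis 5 of 20 were at least 2-fold higher (median 0.47), all of them also in the Leydig list, such as Hsd3b1 (226 and 928 reads, 1.99), while Hsd17b4, an enzyme that peroxisomes of most cells hold, was at 0.04. Aldh1a1, a retinaldehyde dehydrogenase (2537 and 5419 reads, 1.18), Aldh1a7 (122 and 301 reads, 1.17) and Aldh1l1 (97 and 291 reads, 1.11) were the 3 higher genes of 16 in that family. Ephx1, an epoxide hydrolase, had 59 and 511 reads (2.59) and Fabp3, a fatty acid carrier, 72 and 475 reads (2.59), with 37.3% of its windows shared. Cxcl10, a chemokine, had 275 and 1324 reads (2.21). Among genes above 10 FPKM in either library, 34 protein-coding genes were at least 2-fold higher and 310 lower, of 5362.

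Of the macrophage genes 17 of 24 passed the filter, 5 of them at least 2-fold higher and 1 lower, with a median of 0.85, which is 0.38 without the filter. Apoe (11.8 and 34.9 FPKM), Lyz2, a lysozyme (6.10 and 15.8 FPKM), Csf1r, the receptor for macrophage growth factor (71 and 227 reads, 1.02), C1qb, a complement component (70 and 150 reads, 1.01), and Tyrobp, an adaptor (13 and 38 reads, 1.05), were the higher genes. Aif1 went the other way, with 867 and 221 reads (-1.73), and the antigen-presentation genes Cd74 (103 and 95 reads, 0.00) and H2-Ab1 (175 and 156 reads, -0.04) stayed level. In the stroma and matrix list 3 of 18 were higher (16.7%, beside 1.79% of all genes) and the median was 0.51. The 3 were Igfbp7, a secreted binding protein (241 and 886 reads, 1.89), Dcn, decorin (120 and 360 reads, 1.10), and Col3a1 (1.06), with Tcf21, a stromal regulator, at 0.93 and Sparc at 85.7 and 140 FPKM (0.70). Of 14 myoid genes 2 were higher (14.3%, beside 1.79% of all genes), Itih2 (39 and 273 reads, 1.78) and Pdgfra (127 and 424 reads, 1.01). Of the same genes 1 was lower (7.14%, beside 6.29% of all genes), the smooth muscle actin Actg2 (636 and 156 reads, -1.73). The defining myoid markers Acta2 (23.2 and 26.4 FPKM) and Myh11 (3.82 and 3.88 FPKM) hardly differed.

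Sertoli, endothelial and red blood cell lists had no 2-fold member on the log2(FPKM + 1) scale. The added 1 holds Rhox5 and Alas2 under 2-fold. Of 24 Sertoli genes the median was 0.24, led by Rhox5, an X-linked homeobox gene (7.23 and 14.7 FPKM, 0.93), Tsx (18.6 and 34.3 FPKM, 0.85), Amhr2, the receptor of anti-Mullerian hormone (0.61), and the protease Ctsl (0.50). Fshr, the receptor for follicle-stimulating hormone, differed by 0.21, Wt1 by 0.19 and Sox9, the Sertoli cell regulator, by -0.17. Of 17 endothelial genes 6 passed the filter (median 0.36, which is 0.16 without the filter), with Cldn5 at 0.55, Cd34 at 0.48, Cdh5 at 0.41 and Sox18 at -0.04. Of 9 red blood cell genes 2 passed, Bpgm (-0.28) and Alas2 (33 and 73 reads, 0.65), and Hba-a2 had 0 reads in both libraries.

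The medians of both spermatogonial lists lay above that of all genes, and 1 member reached 2-fold on the log2(FPKM + 1) scale. In the list of undifferentiated spermatogonia 16 of 24 passed the filter and the median was 0.34, which is 0.19 without the filter. Lin28a, an RNA-binding protein of stem cells, had 186 and 402 reads (0.95), Ret, a receptor for GDNF, 58 and 188 reads (0.81), Etv5, a transcription factor downstream of GDNF, 360 and 589 reads (0.70), and Zbtb16, which encodes PLZF, 219 and 363 reads (0.62). All 4 were higher in cKO by their counting intervals, whereas Uchl1, at 42.5 and 45.4 FPKM, had an interval of -0.01 to 0.20, and Id4 was at -0.21. The 1 added to FPKM holds Ret and Lin28a under 2-fold. Of 16 differentiating genes Rhox10 alone was 2-fold higher (6.25%, beside 1.79% of all genes). The median was 0.14, with Crabp1 at 0.53, Sohlh1 at 0.50, Ccnd2 at 0.44 and Dmrtb1, at 407 and 309 FPKM, at -0.40.

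The mitochondrial lists, close to the known role of MFN2, had medians between -0.14 and 0.22 and few genes past 2-fold, and the medians below 0 are above it when the libraries are scaled by their read totals. In the list of fusion, fission and contact sites none of 32 reached it (median -0.04). Mcu, the calcium channel of the inner membrane, had 169 and 45 reads (-0.71, at a low FPKM that the added 1 compresses), Pacs2, which sorts contacts with the endoplasmic reticulum, 2306 and 1347 reads (-0.61), and Mtfr1, a fission regulator, 2974 and 1941 reads (-0.48), while Fundc1, a mitophagy receptor, had 49 and 105 reads (0.74) and Vdac2, an outer membrane pore, was at -0.18. In the mitophagy and autophagy list (29 genes, median -0.08) Map1lc3a stood at 145 and 89.6 FPKM (-0.69), Atg5 at 0.56 and Bnip3 at 0.41. Nuclear complex I subunits (35 genes, -0.14) were led by Ndufa12 (1356 and 632 reads, -0.95), Ndufa13 (-0.65) and Ndufa2 (-0.43), with Ndufb11, on the X chromosome, at 0.42. Subunits of complexes II to V (46 genes, -0.08) held Uqcrq (4649 and 2775 reads, -0.62) and the testis isoforms Cox6b2 (-0.43) and Cox8c (-0.33), against the somatic Cox6b1 (0.42) and Cox7a1 (0.60). Ndufv1 (-0.20), Sdhb (-0.29), Uqcrc2 (-0.05) and Atp5a1 (-0.03), subunits of complexes I, II, III and V, lay between the quartiles of all genes (-0.30 and 0.13), Sdhb close to the lower one.

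In the tricarboxylic acid cycle 2 of 25 genes (8.0%, beside 1.79% of all genes) were at least 2-fold higher, with a median of -0.01. Ogdhl, a dehydrogenase subunit, had 227 and 608 reads (1.26), and Idh2, which makes mitochondrial NADPH, 58 and 185 reads (1.20), while Idh3g (0.55), Mdh2 (0.45) and Sucla2 (-0.13) did not reach 2-fold. No gene of the mitochondrial ribosome (42 genes, -0.03) or of mitochondrial genome maintenance (19 genes, -0.05) did. Mrpl27 (0.53), Mrps18c (0.45), Mrps16 (-0.32), Mrpl16 (-0.31) and Mrpl24 (-0.09) are members of the first. In the second, Tfam, which packs mitochondrial DNA, had 357 and 217 reads (-0.46), Tfb1m was at -0.35, Polg, the polymerase, at -0.06, Polg2 at 0.26 and Mterf1a at 0.49. The mitochondrial and integrated stress genes (25 genes, 0.17) held Psat1 (567 and 875 reads, 0.66), Clpp (0.50), Hspd1 (0.41) and Hspa5 (0.11) above 0 and Asns, a target of ATF4, below it (1180 and 675 reads, -0.65). Antioxidant genes (22 genes, 0.10) held Prdx3 (320 and 565 reads, 0.88), Gpx1 (0.86), Txn1 (0.74) and Hmox1 (0.60) above 0, and Gpx4, the peroxidase of sperm, at 363 and 259 FPKM (-0.48). Apoptosis genes (21 genes, 0.22) held Bax (167 and 263 reads, 0.67), Endog (0.60) and Aifm1 (0.51) above 0, Mcl1 at 0.03 and Bad at -0.43.

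In the lists of lipid metabolism only single genes passed 2-fold. In the list of lipid uptake and storage (30 genes, median -0.09) Fabp3 was higher and 3 genes were lower. Of all genes 1.79% were higher and 6.29% lower, so that counts this small do not set the list apart. The 3 lower genes were Acsbg2, an acyl-CoA synthetase of the testis (1063 and 319 reads, -1.48), Acsl1, another synthetase (2196 and 745 reads, -1.24), and Dgat2, which makes triglycerides (1715 and 707 reads, -1.10). Fabp9, the fatty acid carrier of germ cells, stood at 295 and 244 FPKM (-0.27). Fatty acid oxidation had no 2-fold member among 30 (median 0.02), with Acadl (292 and 555 reads, 0.95), Acaa2 (0.68), Acadm (0.59), Decr1 (0.57) and Crat (222 and 172 FPKM, -0.37). In the PPAR and RXR list 10 of 16 passed the filter, with no 2-fold member and a median of -0.08, and Ncoa3 (-0.21), Nr1h3 (-0.21), Ncor1 (-0.16) and Nr1h2 (-0.02) are among them. The receptors themselves were low: Ppara had 37 and 36 reads, Ppard 118 and 121, and Pparg 44 and 44, and none passed the filter. In cholesterol synthesis 2 of 24 were at least 2-fold higher (8.33%, beside 1.79% of all genes), among them Nsdhl. The median of that list was 0.21, with Msmo1 at 0.71, Hmgcs1 at 0.64 and Fdft1 at -0.30. Peroxisome biogenesis (17 genes, -0.02) had none on this scale, and Pex3, needed for new peroxisomes, stood at 10.6 and 8.53 FPKM (-0.28). Pex5l had 204 and 19 reads, and its difference of -0.94 is held under 2-fold by the 1 added to its low FPKM. Pex6 was at -0.21 and Pex13 at -0.02.

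Of the general lists, the cytosolic ribosomal proteins had 1 of 57 at least 2-fold higher (1.75%, beside 1.79% of all genes), Rps4x, and a median of 0.00. Rpl26 stood at 142 and 79.1 FPKM (-0.83), while Gm15772, 74.3% of whose windows lie in Rpl26, had 203 and 1650 reads (3.09), so that reads may be split between them. Rps27a (0.83), Rpl39 (0.71) and Rplp0 (-0.19) are further members. The proteasome had none of 36 (median -0.08), with Psme1, of the immune activator, at 0.96, Psma7 at 0.45, Psma4 at 0.42, Psma6 at -0.45 and Psmc3 at -0.24. The median of 32 heat shock genes and chaperones was -0.20, or -0.02 when the libraries are scaled by their read totals. Of them 4 were at least 2-fold lower (12.5%, beside 6.29% of all genes). These were testis genes: Hspa1l (330 and 32 reads, -2.17), Calr3, a chaperone for sperm surface proteins (304 and 39 reads, -2.07), Dnajb8 (115 and 10 reads, -1.87) and Pdilt (792 and 282 reads, -1.25). Hspa1l shares 71.4% of its windows with other genes. Of 24 immediate early genes 2 were at least 2-fold higher (8.33%, beside 1.79% of all genes) and the median was 0.36. Among the 24 were Myc at 63 and 256 reads, Zfp36, which destabilizes mRNA, at 34.7 and 79.9 FPKM (1.18), Fos at 77.2 and 148 FPKM (0.93), Cyr61 at 0.80 and Egr1 at 0.60. Of 12 interferon genes Cxcl10 alone was 2-fold higher (8.33%, beside 1.79% of all genes). The median was -0.12, but 0.88 over genes above 5 FPKM, with Bst2 at 0.88, Irf1 at 0.41 and Gbp2 at -0.67. The other members that passed the filter were between -0.67 and 0.88.

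Genes of other biotypes held the largest differences above 0. Hist1h2al, annotated as a processed pseudogene, had 13 and 520 reads (4.85), the noncoding Gm48168 13 and 264 reads (3.85) and the ribosomal protein pseudogene Gm10243 5 and 95 reads (3.23). Of the sequence windows of these 3, 67.6%, 41.6% and 100% lie in other genes too, and these values are uncertain for that reason. The lowest were 1700022A21Rik (490 and 45 reads, -2.73), the lincRNA Gm29825 (549 and 25 reads, -2.60) and the antisense RNA Wbscr25 (426 and 33 reads, -2.58). Of 494 lincRNAs with 100 or more reads 37 were lower (7.49%) and 2 higher, against 482 lower (4.04%) and 91 higher (0.763%) of 11923 protein-coding genes. Among 254 miRNA genes 63 were higher and 73 lower, but only 8 of them had 100 reads, 1 of these being 2-fold changed.

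Short genes were lower more often. Of 610 protein-coding genes with exons of up to 1 kb in all, 142 were at least 2-fold lower (23.3%), of 2737 between 1 and 2.5 kb 243 (8.88%), of 4442 between 2.5 and 5 kb 116 (2.61%) and of 4707 longer ones 47 (0.999%). The shares of higher genes went the same way, from 3.93% to 0.234%. Read depth mattered too, since 24.3% of genes with under 20 reads were lower and 15.4% higher, against 2.57% and 0.342% of those with 1000 or more. Among genes with 1000 or more reads 180 were lower and 24 higher.

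**Figure D5:**
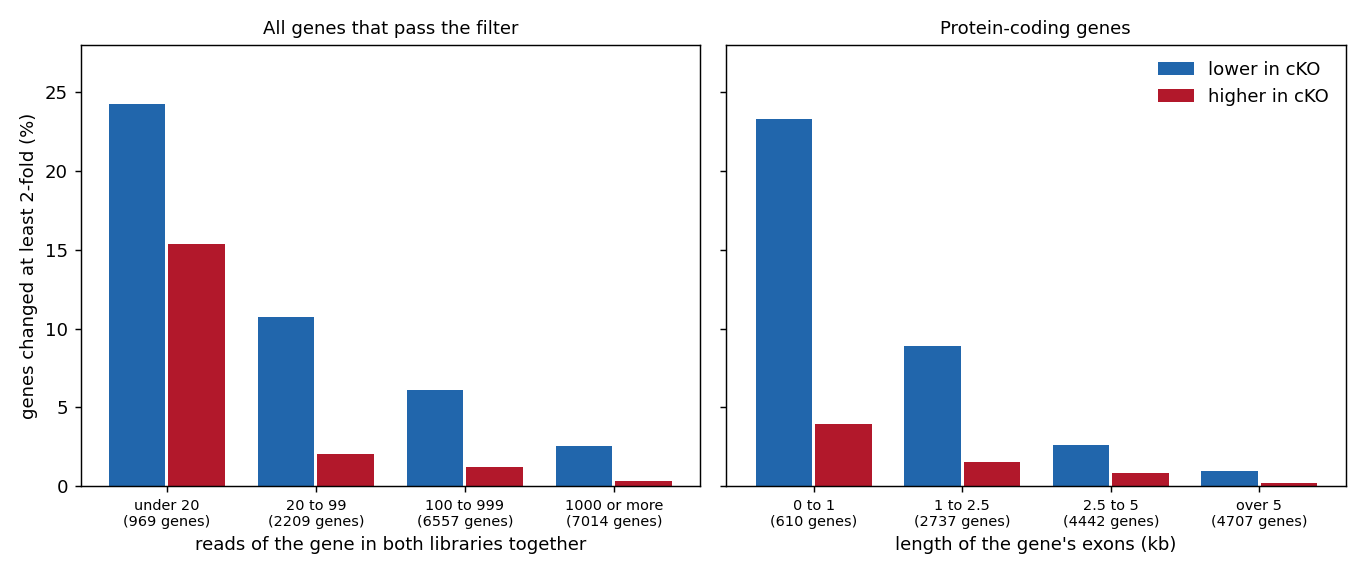
Share of genes at least 2-fold lower (blue) or higher (red) in MFN2 cKO, P spermatocytes at PD 24, by reads in both libraries together (left, all genes) and by total exon length (right, protein-coding genes), with the number of genes below each pair of bars. Lower genes are 23.3% of the genes up to 1 kb and 0.999% of those over 5 kb.

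The genes 2-fold apart here were followed in the other pairs, each read against its own WT library. Of the 482 protein-coding genes with 100 or more reads that were at least 2-fold lower, 480 passed the filter in the L/Z pair of PD 24, where 298 were lower too (62.1%, against 7.03% of all genes in that pair), with a median of -1.19. In the P pair of PD 52 42 of 480 were lower (8.75%, against 5.78% of all genes and 500 of 11883 autosomal protein-coding genes), with a median of -0.28. In the L/Z pair of PD 52 only 1 was lower (against 3.12% of all genes, with 7.95% 2-fold apart either way) and 19 were higher, with a median of 0.35. Most of these genes were thus lower in both stages at PD 24 and in neither at PD 52, by the 2-fold count. These genes took up 1.97% of all reads in the WT and 0.642% in the cKO library of P spermatocytes at PD 24, and 4.54% and 3.58% in those of PD 52. In the WT library of L/Z spermatocytes at PD 24 they took up 4.67%, more than in the P library of the same age, and 9.02% at PD 52. The spermatid markers, too, were at a higher sum in that L/Z WT library (1772 FPKM, with 74.7 FPKM in its cKO) than in P WT. At PD 52 they summed to 3863 FPKM in WT and 1533 FPKM in cKO for P and to 8503 and 16933 FPKM for L/Z. The L/Z libraries thus held more spermatid mRNA than their stage implies, and the part of this in the values above was not tested.

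The 91 higher genes of the same kind kept their direction more widely. In the L/Z pair of PD 24 74 of 87 were at least 2-fold higher (85.1%, against 3.45% of all genes), with a median of 1.46, in the P pair of PD 52 49 of 85 (57.6%, against 5.21%), with a median of 1.10, and in the L/Z pair of PD 52 57 of 82 (69.5%, against 4.83%), with a median of 1.33. The 6 Leydig markers, Cyp17a1 and Insl3 among them, stood at a summed 31.4 and 161 FPKM in the L/Z libraries of PD 24 and at 239 and 585 FPKM in the P libraries of PD 52. Differences between pairs could not be tested with 1 library in each group.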

How the data were processed

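Spermatocyte RNA was sequenced by the study as paired-end reads from 8 libraries, 1 per group, of which 2 are compared here. Before deposit the authors made the FPKM values with the Novomagic platform. The submitters' notes name CASAVA 1.4, Bowtie 0.12.2 and the builds mm8 and mm9, whereas 53585 of the 54532 listed genes (98.3%) have the coordinates of GENCODE mouse release 21 on GRCm38. FPKM times gene length gave whole reads for 100% of values in each library, within a relative tolerance of 1e-06. The deposited scaling equals 1.01 (WT) and 0.894 (cKO) times plain scaling by library read totals. The study names DESeq2 as its test, which needs more than 1 library per group and was not run here.

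Differences were log2(FPKM + 1), over genes with FPKM above 1 in either library. They were computed with Python 3.11.15, NumPy 2.4.6, pandas 2.3.3 and SciPy 1.17.1, after the script was checked on simulated reads, and plotted with Matplotlib 3.10.9. Of 1199 entries in 48 lists, 1193 matched the table, 16 of them by a RefSeq synonym. The lists and members were chosen with earlier results of these data known. Genes named are Mfn2; the 8 largest rises and falls among protein-coding genes above 10 FPKM; the 3 largest among other biotypes with 100 or more reads; up to 4 members per list with the largest difference and 20 or more reads, and the member with the highest WT level; the PPAR genes, Pex3 and 5 respiratory subunits. Others were named after their values were seen. Some genes that the rule names are not reported here. Sequence shared between genes was the percentage of a gene's 50-base transcript windows found in another gene on either strand. Promoters came from RefSeq. Proteins were not analysed here. Alternatives were another pseudocount, 2 other scalings, other filters on FPKM or reads, and protein-coding genes only. Strand was not given for the kit, so overlapping genes cannot be told apart.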

Additional observations from a re-analysis of the deposited data

Results flagged for a closer look

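In 3 lists spermatid genes ran in opposite directions in 2 pairs of libraries, each pair with its own WT, and with 1 library per group this difference was not tested. Spermatid chromatin condensation had a median of -2.25 in P spermatocytes at PD 24 and of 0.576 in L/Z spermatocytes at PD 52. Its 14 members were all below 0 in the first pair, and 5 of them were at least 2-fold higher in the second. The sperm tail fibre and sheath list had medians of -1.13 and 0.276, and the testis-specific serine kinases of -1.77 and 0.334. No group held enough libraries to look for 1 that stands apart.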

How the results depend on the processing

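With 1 library per group no library could be left out. No paired analysis was possible because each genotype had 1 library at this stage and age. The deposited scaling put the median of all genes at -0.10. It was 0.0016 with median-of-ratios scaling over the 2 libraries, 0.058 with scaling by read totals (an alternative chosen after seeing the data), and -0.041 without the FPKM filter. Mfn2 differed by -0.84 and -0.77 under the 2 scalings. Of the 48 list medians 13 changed sign with median-of-ratios and 18 with read-total scaling, all of them medians from -0.14 to -0.01 on the deposited scale. Over genes above 5 FPKM 5 medians changed sign (intrinsic apoptosis from 0.22 to -0.03, red blood cells from 0.18 to -0.28 and interferon genes from -0.12 to 0.88 among them) and 2 without the filter, and no list with a median of 1 or more in size changed sign under any alternative. Counts of 2-fold genes moved more: 667 higher and 1663 lower with a pseudocount of 0.1, 100 and 547 above 5 FPKM, 116 and 548 over protein-coding genes only, and 151 higher over genes with 20 or more reads, where 819 were lower. Between 68.7% and 84.5% of changed genes were lower in every setting. Between 19 and 28 of the 48 lists held a 2-fold member. Among genes with under 20 reads 24.3% were 2-fold lower and 15.4% higher, so that single sparse genes say little.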
